A study of Mus musculus with 8 samples.

Results

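*Cenpn* and *Cmc2* are neighbouring protein-coding genes on mouse chromosome 8 that are transcribed away from each other from starts 275 bp apart. They are 2 of the 55450 genes of GENCODE vM21 and were chosen by the signal values of the PRDM10 peak between them, so that its rank is given here as a description and was not tested. PRDM10 is a zinc finger transcription factor, and its binding was profiled by ChIP-seq, which sequences the DNA that an antibody brings down with a protein. Every row of the peak lists was taken that overlapped either gene body, its 5 kb upstream or its 1 kb downstream. This gave 1 of the 528 peaks of the EtOH list and 1 of the 176 peaks of the 4-OHT list, and each lay in the windows of both genes.

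The cells were mouse embryonic stem cells (mESCs) whose *Prdm10* alleles are floxed and which carry Rosa26-CreERT2, a Cre recombinase expressed from the ubiquitous Rosa26 locus that 4-hydroxytamoxifen (4-OHT) activates. EtOH cells (genotype label Prdm10F/F; Rosa26-CreERT2) received the ethanol vehicle, and 4-OHT cells (genotype label Prdm10del/del; Rosa26-CreERT2) received 50 nM 4-OHT. Exposure lasted 24 h in both groups, both groups carry the Cre, and the 4-OHT group differs from the EtOH group in drug as well as in allele. The 24 h is the length of exposure only, and the study's methods place the harvest for ChIP later. Each group had 3 ChIP samples, each with a different antibody to PRDM10, and 1 input sample, and the authors pooled the 3 ChIP samples before the listed peaks were called. The lists hold neither values per sample nor read counts, so that there is no replicate error, the number of reads behind a peak is not known from them, and neither the deletion nor the cell type can be checked in them.

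CENP-N is a subunit of the constitutive centromere-associated network (CCAN), the protein complex that sits on centromeric chromatin through the cell cycle and onto which the kinetochore is built. It contacts the nucleosomes that contain the histone H3 variant CENP-A. CMC2 is a small mitochondrial protein with twin CX9C motifs that takes part in the assembly of cytochrome c oxidase, complex IV of the respiratory chain. Gene pairs with such head-to-head starts are common in mammalian genomes, and a factor bound between them lies upstream of both.

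*Cmc2* (ENSMUSG00000014633) occupies chr8:116888685-116921455 (GRCm38) on the minus strand, and *Cenpn* (ENSMUSG00000031756) occupies chr8:116921730-116941507 on the plus strand. The stretch between their starts carried both summits, the positions of highest signal within the peaks, and is therefore shown. It is printed on the plus strand from the first base upstream of *Cmc2* to the last base before *Cenpn* as RefSeq annotates it (260 bases, GRCm38). The capitals mark the 14-base stretches nearest to the PRDM10 motif, which are described with the motif search.
chr8:116921456-116921715: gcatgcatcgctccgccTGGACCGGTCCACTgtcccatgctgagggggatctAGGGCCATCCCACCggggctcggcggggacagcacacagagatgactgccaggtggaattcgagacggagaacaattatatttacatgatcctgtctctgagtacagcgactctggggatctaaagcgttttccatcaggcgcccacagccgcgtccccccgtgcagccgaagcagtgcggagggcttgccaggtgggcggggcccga
The EtOH summit lay at base 150 of this stretch and the 4-OHT summit at base 180. The capitals cover bases 18 to 31 and 53 to 66, on the *Cmc2* side of both summits.

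In EtOH cells, the peak at chr8:116921365-116921834 was 470 bp wide and covered the starts of both genes. Its summit, at position 116921605, was 150 bp upstream of the *Cmc2* start and 125 bp upstream of the *Cenpn* start. It was thus 12.5 bp from the midpoint of the gap, towards *Cenpn*. The gap of 274 bp made up 58.3% of the peak, which ran 91 bp into *Cmc2* and 105 bp into *Cenpn*.

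The principal transcripts place the EtOH peak outside coding sequence on both sides. Of its bases, 284 were between the starts of the principal transcripts Cmc2-205 and Cenpn-201, 91 were in the 5′UTR of *Cmc2*, 44 were in the 5′UTR of *Cenpn* and 51 were in the first intron of *Cenpn*. Translation starts in a later exon of both genes, at position 116911208 in *Cmc2* and 116926092 in *Cenpn*. The 5′ ends of 6 of the 7 annotated *Cmc2* transcripts were inside the peak, at distances of 150 to 240 bp from its summit. Of the 5 annotated *Cenpn* transcripts, 3 started inside it, 125 to 142 bp from the summit. The remaining starts, Cenpn-203, Cenpn-202 and Cmc2-207, were 722, 4504 and 27081 bp from the summit, and none of them had a peak of its own. The RefSeq entry of *Cmc2* reaches position 116944322, beyond the far end of *Cenpn*, so that the peak is inside the span of that entry. The RefSeq promoter of *Cmc2* (chr8:116921387-116921686, 250 bases before to 50 after a start) was nevertheless wholly inside the EtOH peak, and so was that of *Cenpn* (chr8:116921490-116921789).

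In 4-OHT cells, 1 peak was listed at these genes, at chr8:116921265-116921959. It was 695 bp wide and contained the whole EtOH peak, reaching 100 bp further into *Cmc2* and 125 bp further into *Cenpn*. It covered the complete first exons of both principal transcripts, 105 bp of *Cmc2* and 44 bp of *Cenpn*, and parts of both first introns, 86 and 176 bp. Its summit, at position 116921635, was 180 bp upstream of the *Cmc2* start and 95 bp upstream of the *Cenpn* start. The summits were 30 bp apart, and the 4-OHT summit was the one nearer to *Cenpn*. Over the 121 pairs of overlapping EtOH and 4-OHT peaks, the summits were a median of 30 bp apart (quartiles 9 and 80 bp), so that the displacement at *Cenpn* and *Cmc2* was a typical one. The pairs share neither a common error nor replicates, and the displacement was not tested.

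**Figure D1:**
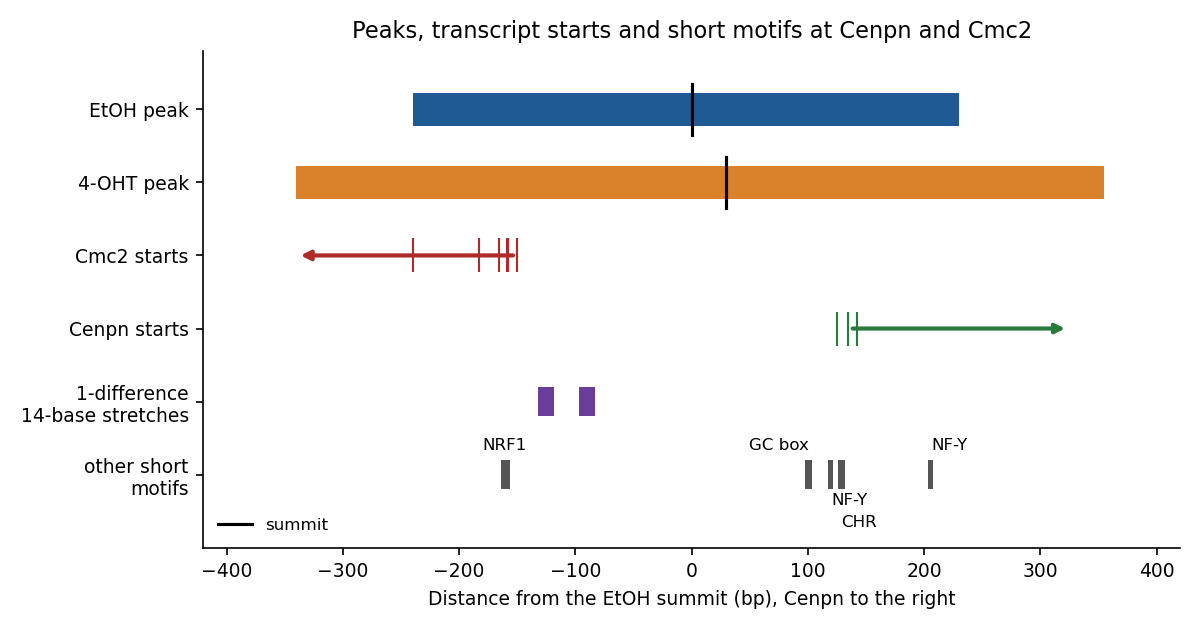
Peaks, annotated transcript starts and short motifs at *Cenpn* and *Cmc2*, by distance from the EtOH summit in bp. Bars are peak intervals with their summits as black lines, vertical ticks are transcript 5′ ends within 400 bp with an arrow in the direction of the principal transcript, purple boxes are the 14-base stretches with 1 difference from the motif, and grey boxes are the other motifs found. The EtOH summit lies 125 bp from the *Cenpn* start and 150 bp from the *Cmc2* start, and the purple boxes lie on the *Cmc2* side.

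Enrichment is given in the lists as a signal value from the peak calling, which was compared only among peaks of the same list. The EtOH peak of *Cenpn* and *Cmc2* had a signal value of 838 and ranked 2 of 528. The value above it was 900 and the next below it 772, and the median of the list was 131, so that the peak stood 6.37 times above the median. The 4-OHT peak had a signal value of 427 and ranked 3 of 176. The value above it differed by less than 1 unit, the next below it was 316, and the median of that list was 55.7, a ratio of 7.66. These values are those on which the genes were selected. The peak was at or near the top of both lists, and in the 4-OHT list it was set off from rank 4 downwards. Because the scales of the lists are not tied to each other, 838 and 427 do not measure how much signal was lost, and no loss was computed.

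Both peaks had the maximum IDR score of 1000, a score that rises with the reproducibility of a peak between pseudo-replicates of the pool. This maximum was shared by 504 EtOH peaks and 98 4-OHT peaks. The widths departed from the commonest ones in opposite directions. Most EtOH peaks (300) had the commonest width of 430 bp and 15 were wider than that of *Cenpn* and *Cmc2*, whereas 125 4-OHT peaks had the commonest width of 1140 bp and all 125 were wider than it.

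**Figure D2:**
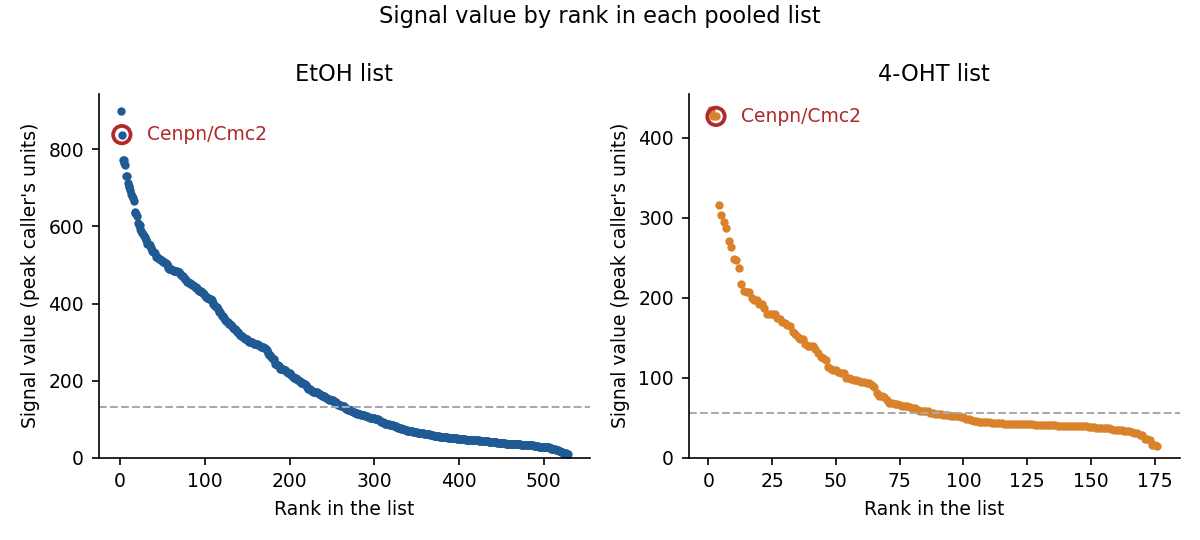
Signal value against rank in the EtOH list (528 peaks) and the 4-OHT list (176 peaks), in the peak caller's units, with the *Cenpn* and *Cmc2* peak circled and the median of each list as a dashed line. The peak ranks 2 and 3, and only the vertical order within a panel can be compared, since the axes are not on 1 scale.

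Of the 528 EtOH peaks, 107 (20.3%) were overlapped by a 4-OHT peak. The overlap was common among the peaks with high signal values, with 8 of the 10 highest, 17 of the 20 highest and 66 of the 100 highest EtOH peaks, so that the *Cenpn* and *Cmc2* peak did not stand apart from peaks of like rank in this. The overlap at *Cenpn* and *Cmc2* covered all of the EtOH peak and 67.6% of the 4-OHT peak. What gave rise to the 4-OHT peak was not tested.

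The 5 overlapping pairs of peaks with ranks most like those of *Cenpn* and *Cmc2*, by the summed difference of their ranks in both lists, were then taken. The nearest was at *2410006H16Rik*, a host gene of small nucleolar RNAs, with EtOH rank 5 and 4-OHT rank 1. The next was 6511 bp from the nearest gene start, that of the pseudogene *Minpp1-ps*, with ranks 9 and 5. *Tardbp*, which encodes the RNA-binding protein TDP-43, had ranks 4 and 12, and *Taf15*, which encodes an RNA-binding protein of the FET family, had ranks 12 and 2. *Uchl1*, which encodes a ubiquitin hydrolase, had ranks 7 and 17. The EtOH peaks of these pairs, apart from that at *Minpp1-ps*, had their summits 65 to 139 bp from a gene start. The differences in rank from the *Cenpn* and *Cmc2* peak added up to 5 for the nearest pair and 19 for the last, and with pooled lists it is unknown which of these ranks differ beyond the variation between samples.

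**Figure D3:**
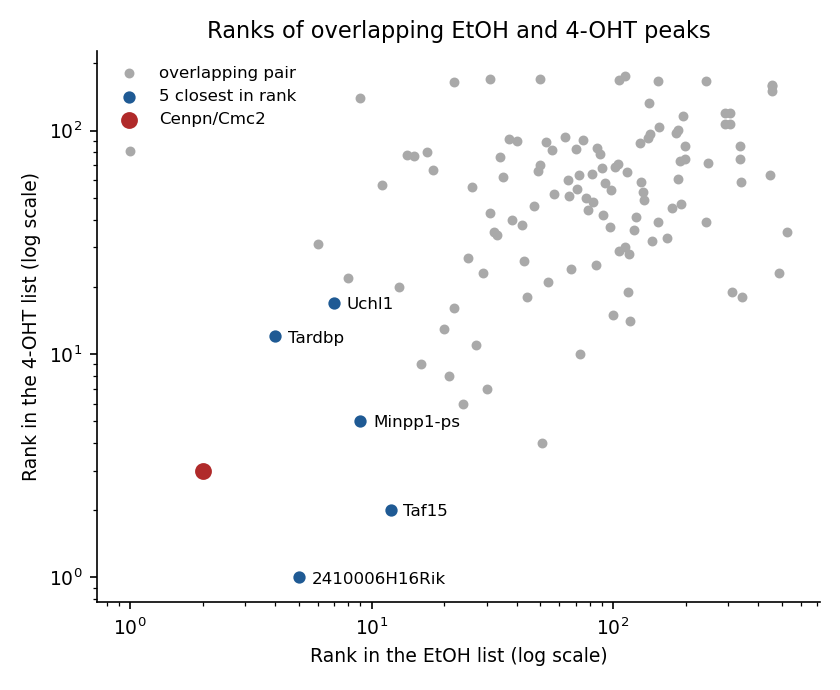
Rank in the EtOH list against rank in the 4-OHT list, both on log scales, for the 121 overlapping pairs of peaks. The *Cenpn* and *Cmc2* pair (red) is at ranks 2 and 3, and the 5 pairs closest to it in rank (blue) are named by the nearest gene start.

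The peak had no close neighbour. On chromosome 8 there were 30 EtOH and 21 4-OHT peaks, and the EtOH summits on either side of that of *Cenpn* and *Cmc2* were 3.29 and 3.67 Mb away. Both of these were weak, with signal values of 34.2 and 32.5 (ranks 473 and 486). The nearest 4-OHT summits were 11.01 and 4.84 Mb away. The adjacent protein-coding genes, *Cdyl2* beyond *Cmc2* and *Atmin* beyond *Cenpn*, had their starts 189 and 21.8 kb from the EtOH summit, and neither had a peak of either list in its window. A peak in that window was found for 691 of the 55450 genes (1.25%) in EtOH cells and for 210 (0.379%) in 4-OHT cells. Among the 21951 protein-coding genes the shares were 2.48% and 0.733%.

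*Cenpn* and *Cmc2* were then set among other divergent pairs, defined as protein-coding genes that face away from each other with starts at most 1000 bp apart and with an EtOH summit within 500 bp of both. Such pairs held 36 of the 528 EtOH peaks (6.82%), at 31 distinct pairs, of which 5 were listed with 2 peaks. The other 492 peaks had a median signal value of 120, but they were not limited to promoters, and peaks at single promoters were not set apart. The 36 peaks at pairs had a median of 346 (quartiles 145 and 477), and *Cmc2*/*Cenpn* had the highest. The 4 that followed were *Iqch*/*Aagab* (588), *Tada3*/*Arpc4* (581), *Mcm4*/*Prkdc* and *Ptcd2*/*Mrps27* (both 554). All 4 were at EtOH ranks 25 to 33, and *Cmc2*/*Cenpn* held the only one of the 36 peaks that was among the 10 highest EtOH peaks.

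In geometry, *Cmc2*/*Cenpn* was within the range of the other pairs. Its starts were 275 bp apart, against a median of 192 bp over the 31 pairs (quartiles 126.5 and 275.5 bp), and 22 pairs were closer together and 8 further apart. The summit was between both starts for 24 of the 36 peaks, including this one. It was 12.5 bp from the midpoint here, against a median of 68.8 bp over the 36 peaks, and 8 peaks had a summit nearer to the midpoint. A 4-OHT peak overlapped 15 of the 36 peaks (41.7%), including all of the 5 with the highest signal values, beside 20.3% of all EtOH peaks. These figures describe the lists and were not tested.

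**Figure D4:**
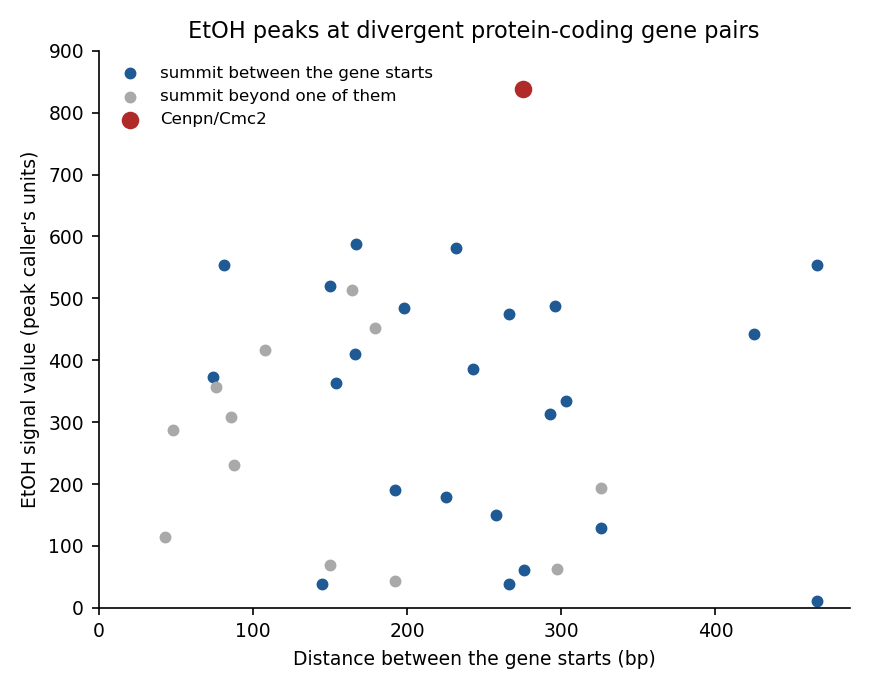
EtOH signal value in the peak caller's units against the distance between gene starts in bp, for the 36 EtOH peaks at divergent protein-coding pairs. *Cenpn*/*Cmc2* (red) is at 275 bp and 838, and the next highest peak is at 588, while its spacing falls among those of the other pairs.

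The PRDM10 motif, as read from the study's own motif logo, has a core of TGGT and CC with 5 bases between them, within a 14-base consensus. The study discovered this motif in these same EtOH peaks, so that its frequency among them is not independent of them. On both strands, the core had 0 matches in the EtOH peak of *Cenpn* and *Cmc2*, and 0 in the wider 4-OHT peak. By contrast, 339 of the 528 EtOH peaks (64.2%) held at least 1 match, as did 81 of the 100 with the highest signal values. Of the 189 peaks without a match, that of *Cenpn* and *Cmc2* had the highest signal value, followed by that of *Tardbp* at rank 4. It was not alone near the top of the list, since 4 of the 10 highest EtOH peaks had no match. Peaks with a match had a median signal value of 173 and those without one had a median of 68.6. The complete 14-base consensus had no match in the *Cenpn* and *Cmc2* peak either, nor did the consensus with 1 difference outside the core, although 175 and 282 EtOH peaks held these. An absent match says only that these letters are not in the interval, and is no measure of whether PRDM10 contacts the DNA there.

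The 14-base stretches nearest to the consensus were looked for after the core was seen to be missing. In the EtOH peak, 2 stretches differed from the consensus at 1 position, and at both it was position 6, the last base of TGGT when the 5′ base of the consensus is position 1. Both are on the minus strand, and they are shown 5′ to 3′ on that strand with the 6 core positions in capitals.
chr8:116921473-116921486: agTGGAccggtCCa
chr8:116921508-116921521: ggTGGGatggcCCt
The differences are T6A in the first stretch and T6G in the second, and the other 5 core bases were kept in both. Their centres were 125.5 and 90.5 bp from the EtOH summit on the side of *Cmc2*, and 18 to 31 and 53 to 66 bp upstream of the *Cmc2* start. The 12 bases at chr8:116921473-116921484 read the same on both strands, so that an overlapping plus-strand stretch also came close to the consensus, with differences at positions 2 and 6.

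A stretch that differed from the consensus at no more than 1 position, whichever it was, was in 401 of the 528 EtOH peaks. Stretches that differed at position 6 alone, a class set after the stretches above were seen, were in a minority. A stretch that matched the consensus but for position 6 was in 103 of the 528 EtOH peaks (19.5%), and 21 peaks held 2 or more, as the *Cenpn* and *Cmc2* peak did. Among the 189 EtOH peaks without the core, 49 (25.9%) held at least 1. In windows of equal length, it was in 17.4% of the 300 bases around EtOH summits and in 3.88% of 32817 RefSeq promoters (GRCm38.p6, 250 bases before to 50 after each start). The core itself was in 59.7% and 13.8% of these windows, and the 14-base consensus in 31.3% and 1.33%. Since the motif was discovered in these peaks, the higher shares around their summits are no independent result. Within 100 bp of the summit, the stretch nearest to the consensus differed at 1 position in the *Cenpn* and *Cmc2* peak, as in 184 of the 528 peaks, whereas 127 held the full consensus there and 217 had 2 or more differences.

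Other promoter motifs were found on the *Cenpn* side. CCAAT, the letters recognised by NF-Y, had 2 matches on the minus strand, 1 upstream of the *Cenpn* start at chr8:116921722-116921726 and 1 downstream of it at chr8:116921808-116921812. A GC box (GGGCGG), which SP-family factors bind, began 27 bp upstream of that start on the plus strand. TTTGAA, the cell cycle genes homology region (CHR), was on the minus strand just downstream of it, at chr8:116921731-116921736. On the *Cmc2* side, CGCATGCG, the palindromic site of NRF1, a regulator of nuclear genes for mitochondrial proteins, was inside the first exon of *Cmc2*, at chr8:116921441-116921448. The ETS (CCGGAAG), YY1 (AAGATGGCG), CRE (TGACGTCA), E-box (CACGTG), E2F (TTTCCCGC) and TATA box (TATAAA) letters had no match on either strand in the EtOH peak.

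These letters are short and mostly frequent, and their shares bear on how much a match tells. CCAAT was in 37.4% of all promoters and in 35.04% of the windows around EtOH summits, the GC box in 35.6% and 49.6%, and the CHR in 17.9% and 13.1%. The NRF1 site was the scarcest of the 4, with 1.86% and 2.08%. In the 300 bases around its own summit, the *Cenpn* and *Cmc2* peak held 1 of the 2 CCAAT matches, the GC box and the CHR, but not the NRF1 site, so that it is not among the windows counted for NRF1. A match is a description of the letters and not of a bound site. The EtOH peak was 62.6% G and C, above the median of 58.9% over the EtOH peaks, and 194 peaks had more. It held 39 CpG dinucleotides, 0.85 of the number that its base composition gives, beside a median ratio of 0.70. No base of it was repeat-masked, as in 212 of the 528 peaks.

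**Figure D5:**
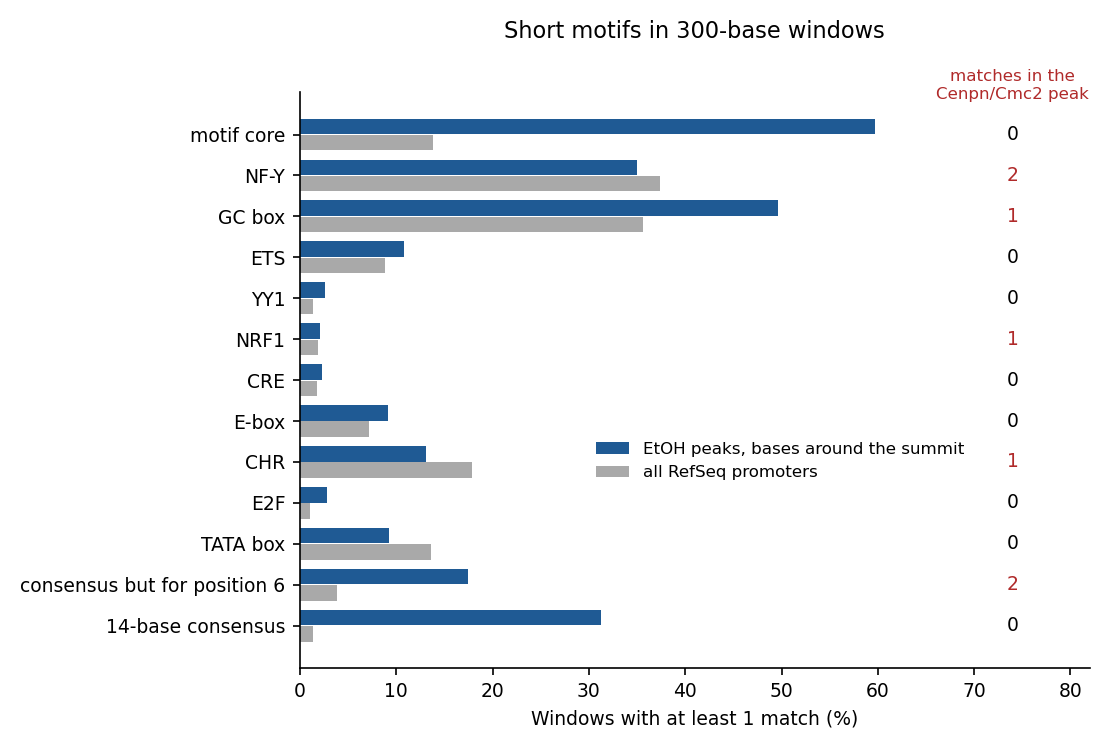
Share of 300-base windows with at least 1 match to each motif, in percent, around the 528 EtOH summits (blue) and in 32817 RefSeq promoters (grey), with the number of matches in the whole EtOH peak of *Cenpn* and *Cmc2*, which is wider than these windows, at the right. The core and the 14-base consensus are the motifs with the widest gap between blue and grey, and each has 0 matches in that peak. Both come from a motif that the study discovered in these EtOH peaks, so that their gap is not independent of the peaks.

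Whether genes that act with *Cenpn* or *Cmc2* also had a peak was asked of 4 lists, in which all 57 genes were found in the annotation. Of the 15 CCAN genes other than *Cenpn*, 1 had an EtOH peak (6.67%), beside 2.48% of protein-coding genes. It was *Cenpp*, whose peak at chr13:49652731-49653002 had a signal value of 313 (rank 145) and a summit 85 bp upstream of the gene start. *Cenpp* is likewise 1 of a divergent pair, with the ribosome biogenesis gene *Nol8*, and its peak held 2 core matches where that of *Cenpn* held 0. A 4-OHT peak was also listed at *Cenpp*, with rank 32 of 176.

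Among 5 genes for CENP-A and the factors that load it, 1 had an EtOH peak (beside 2.48% of protein-coding genes), *Hjurp*, which encodes the CENP-A chaperone. This peak was weak (signal value 32.9, rank 485) and its summit was 11.4 kb downstream of the gene start, so that it was not a promoter peak. The 4-OHT peaks in its window, 2 rows that overlap each other, were beyond the 3′ end of the gene and did not overlap the EtOH peak. *Cenpa* itself had no peak in either list.

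Of the 24 genes for complex IV assembly other than *Cmc2*, 1 had an EtOH peak (4.17%, beside 2.48% of protein-coding genes). It was *Lrpprc*, which encodes a protein that stabilises mitochondrial mRNAs, with a signal value of 521 (rank 43), a summit 106 bp downstream of the gene start, 1 core match and a 4-OHT peak at rank 26. *Cmc1* and *Cmc4*, which encode other twin CX9C proteins, had no peak, and none of the 11 nuclear genes for complex IV subunits had one. Thus *Cenpn* and *Cmc2* shared 1 peak, and 3 of the other 55 genes of their lists had an EtOH peak in their window, where 2.48% of protein-coding genes had one. Each share rests on 1 gene, such as *Lrpprc*, and the lists were chosen with earlier results of these data known. The shares therefore depend on which genes were listed, and they were not tested against the background.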

How the data were processed

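Reads were aligned by the authors to mm10 (GRCm38). Tools and versions given in the study's methods and the submitters' processing notes were BWA 0.7.13, Picard 2.10.6 for duplicates and SAMtools 1.2 for multi-mapping and low-quality reads. SPP called peaks on the pool of the 3 ChIP samples of a treatment, blacklisted peaks were removed, and peaks passing an IDR cut-off of 0.05 between 2 pseudo-replicates of the pool were kept. The deposited signal is the enrichment that the authors' peak caller gave each peak, the deposited score is the authors' IDR score, and the summit is an offset from the peak start. A further deposited score, for the false discovery rate, was not used. The methods give an approximate number of raw reads per library, but the lists give no filtered reads or reads per peak, so that no counting precision was computed, and no test was possible on pooled lists.

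Peaks were ranked by signal within a list, overlaps needed 1 bp, and gene starts were 5′ ends of GENCODE vM21 gene bodies. Motifs were matched on both strands of the unmasked GRCm38.p6 sequence, and promoters came from RefSeq, whose table held both genes. Searches, overlaps and the merging of overlapping rows were tested on simulated data, and the ranking was not. Genes named were the members, the nearest genes, the 5 pairs most alike in rank, the 5 highest divergent pairs and list genes with a peak. *Cenpa*, *Cmc1* and *Cmc4*, without a peak, were named after their values were seen. Members and lists were chosen with earlier results of these data known. Expression was not analysed here, and 1 item of the gene lists is not reported here. The genome was indexed with samtools 1.23.1 and read with pyfaidx 0.9.0.4, tables were handled in Python 3.11.15 (pandas 2.3.3, numpy 2.4.6) and plots drawn with matplotlib 3.10.9.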

Additional observations from a re-analysis of the deposited data

How the results depend on the processing

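The ranks of 2 and 3 were the same with overlapping rows merged and with IDR scores of at least 830, and the overlap of the EtOH and 4-OHT peaks held when 50% of both peaks or summits within 100 bp were required. Over all 13 results, 26 of the 35 alternatives left the value as it was or, for counts, within 1.5 times it, and none reversed one. Measured to the nearest protein-coding or basic transcript, the *Cenpn* start was 135 bp from the EtOH summit and 105 bp from the 4-OHT summit, while distances to *Cmc2* did not change. Requiring 50% of both peaks left 52 EtOH peaks with a 4-OHT peak. A peak of the commonest EtOH width, 430 bp, cannot cover 50% of one of the commonest 4-OHT width, 1140 bp. That count therefore depends on the listed widths as well as on position. A peak at the gene start or the 1 kb upstream was found for 334 genes in EtOH and 122 in 4-OHT cells. The 14-base consensus was in 175 EtOH peaks, and, in an alternative chosen after seeing the data, allowing 1 mismatch at any position gave 2 matches in the *Cenpn* and *Cmc2* peak. Under that setting 401 of the 528 EtOH peaks held a match, so that most peaks pass it. No paired analysis was possible because the lists are pooled over the samples of a treatment, and for the same reason leaving out each ChIP sample was not run. The lists hold only peaks past the IDR cut-off and no reads per region, so a gene without a listed peak may still be bound.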
